A study of Mus musculus with 36 samples.

Results

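The genes described here encode, from nuclear DNA, the subunits of the 5 complexes of oxidative phosphorylation. They were chosen by name alone: protein-coding genes whose symbols begin with Nduf followed by a subunit letter and a number, Sdha to Sdhd, Uqcr, Cox4 to Cox8 with a subunit letter, or Atp5, with a mean of at least 0.5 RPKM (reads per kilobase of gene, scaled to the assigned reads of the library) over all libraries. The name rule matched 83 of the 31554 genes in the deposited table, and 79 passed the limit, 37 of complex I, 4 of complex II, 8 of complex III, 13 of complex IV and 17 of complex V. Cox7b2 with a mean of 0.38 RPKM, Cox8b with 0.17, Atp5l-ps1 with 0.138 and Cox8c with 0.00458 fell under it. The lowest members above the limit were Ndufa4l2 with 1.32 RPKM and Cox6b2 with 1.37. By its letters the rule leaves out Cox4i1, Cyc1, Ndufab1 and the electron carrier Cycs, which are given as a list of their own below. Ndufa4 is counted with complex I by its name, although it is now regarded as a subunit of complex IV. The other members, Atp5sl among them, were likewise placed by name alone.

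Oxidative phosphorylation makes most of the ATP of a neuron. Complex I (NADH dehydrogenase) and complex II (succinate dehydrogenase) pass electrons to ubiquinone, complex III (cytochrome bc1) passes them to cytochrome c, and complex IV (cytochrome c oxidase) passes them to oxygen. Complexes I, III and IV pump protons out of the mitochondrial matrix, and complex V (ATP synthase) uses their return to make ATP. Most subunits are encoded in the nucleus and a few in mitochondrial DNA, so the complexes need a coordinated supply from both.

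Libraries came from adult male C57BL/6 mice, 2.5 months after an operation on the sciatic nerve that was either a sham or a spared nerve injury (SNI), in which some branches of the nerve are cut and another is left intact, a widely used model of chronic neuropathic pain. The regions sampled were the periaqueductal grey (PAG, a midbrain region of descending pain control), the prefrontal cortex (PFC) and the nucleus accumbens (NAc), with 6 libraries for each region and surgery and 36 in all. The labels speak of pooled RNA and give neither the number of mice behind a library nor whether regions shared mice, so p-values refer to variation among libraries, some of which may be technical. In bulk tissue, fewer cells of a type and less RNA per cell cannot be told apart.

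Depth was 27.6 to 64.9 M assigned reads per library, and the members together took 0.638% to 0.972% of them. The markers of PAG and NAc matched the labels: Slc17a6 (vesicular glutamate transporter of midbrain neurons) was 96.7 to 124 RPKM in PAG, and the dopamine receptor gene Drd2 was 73.5 to 112 RPKM in NAc. The cortical transporter gene Slc17a7 was uneven among the NAc libraries. It ranged there from 1.59 to 178 RPKM and was over 50 in 6 of them, against 414 to 543 in PFC. No marker of neurons, oligodendrocytes, astrocytes, microglia, vessels, meninges or blood was at 0 in any library. One further measure is used below, the GC slope of a library, the rise of a gene's log2 level above its regional mean for each 10 points of GC content, over all genes. In PAG it ran from -0.214 to -0.0255 in sham libraries and from 0.0359 to 0.217 in SNI libraries, without overlap (exact permutation test, two-sided, p = 0.00216, the smallest that 924 assignments can give, adjusted p = 0.0216 over 30 tests). In NAc and PFC the groups overlapped, from -0.198 to 0.151 and from -0.259 to 0.122.

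Because the PAG differences of the members moved with base composition, the starts of 4 coding sequences are shown, the first 120 bases of the longest annotated coding sequence of each in GENCODE M21, with every G and C in capitals. Ndufs7 and Uqcr10 had the largest rises of complexes I and III in PAG, and Ndufs1, the largest subunit of complex I, and Ndufv2 fell.
Ndufs7: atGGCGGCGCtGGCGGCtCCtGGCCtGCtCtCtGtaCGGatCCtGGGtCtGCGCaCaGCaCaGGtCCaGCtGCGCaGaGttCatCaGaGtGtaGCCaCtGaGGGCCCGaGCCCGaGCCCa
Uqcr10: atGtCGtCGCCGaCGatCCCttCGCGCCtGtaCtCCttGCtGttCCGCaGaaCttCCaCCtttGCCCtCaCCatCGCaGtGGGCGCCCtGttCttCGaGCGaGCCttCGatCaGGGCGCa
Ndufs1: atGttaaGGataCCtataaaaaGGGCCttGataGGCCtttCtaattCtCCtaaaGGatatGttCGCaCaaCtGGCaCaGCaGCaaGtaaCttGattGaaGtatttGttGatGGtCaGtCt
Ndufv2: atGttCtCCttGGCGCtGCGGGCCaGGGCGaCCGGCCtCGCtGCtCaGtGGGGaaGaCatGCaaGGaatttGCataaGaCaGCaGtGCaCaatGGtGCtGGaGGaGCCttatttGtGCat
G and C made up 66.7% of the bases shown for Ndufs7, 61.7% for Uqcr10, 39.2% for Ndufs1 and 56.7% for Ndufv2, whose start is rich in G and C although it fell. Over the whole coding sequence the shares were 61.5%, 54.9%, 45.1% and 46.5%.

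Levels in sham libraries differed between the complexes and between regions. The 5 highest members by mean RPKM over all libraries were Ndufa4 with 315, Atp5a1 with 291 and Atp5b with 275 (the alpha and beta subunits of the catalytic head of ATP synthase), Cox6b1 with 263 and Cox8a with 249. The 5 lowest were Ndufa4l2, Cox6b2, Cox6a2 with 2.25, Cox7a1 with 2.91 and Ndufb2 with 4.28. The low value of Ndufb2 rests on a deposited gene length of 5628 bases for a coding sequence of 318, and that of Ndufb7, 6.89 RPKM, on 4522 bases for 414. In 14 members the deposited length was over 5 times the coding length, which lowers their RPKM against other genes but leaves comparisons of the same gene between libraries in place. Summed over the 79 members, the sham level was 5116 ± 225 RPKM for NAc, 4453 ± 161 for PFC and 5601 ± 165 for PAG (SD, n = 6). The PFC sums, 4225 to 4662, lay below all NAc sums, 4846 to 5497, while the highest NAc sum passed the lowest PAG sum of 5419.

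After SNI, the members in PAG did not move as a unit. Of the 78 that could be tested there, 24 were higher, against a background of 21.5% of the 15592 genes tested, and 12 were lower, against 13.7% (limma, adjusted p under 0.05). These are 30.8% and 15.4% of the members. The remaining 42 did not pass, the median log2 difference of the members was -0.01 against -0.02 for all genes, and Cox6a2 was too low to be tested. In 20 members every SNI library was above every sham library (background 13.3%), and in 0 members every SNI library was below (background 3.63%). The higher calls were 13 of 37 in complex I, 1 of 4 in complex II, 4 of 8 in complex III, 3 of 12 tested in complex IV and 3 of 17 in complex V. The rises reached 1.25 on the log2 scale, and no fall past the threshold was larger than 0.18. Under quantile scaling 24 members were higher and 25 lower, and of all 15592 genes 2924 were higher and 4019 lower, against 3360 and 2135 without it. The 24 higher members were still called, apart from 1 at most, when any single PAG library was left out. The 12 lower calls were not as steady: 4 members were lower without PAG sham 28 or 29 or without PAG SNI 31, 35 or 36, 5 without sham 25 or SNI 32, 6 without sham 26, and 28 without SNI 33. The counts of all genes in these fits are not given here.

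**Figure D1:**
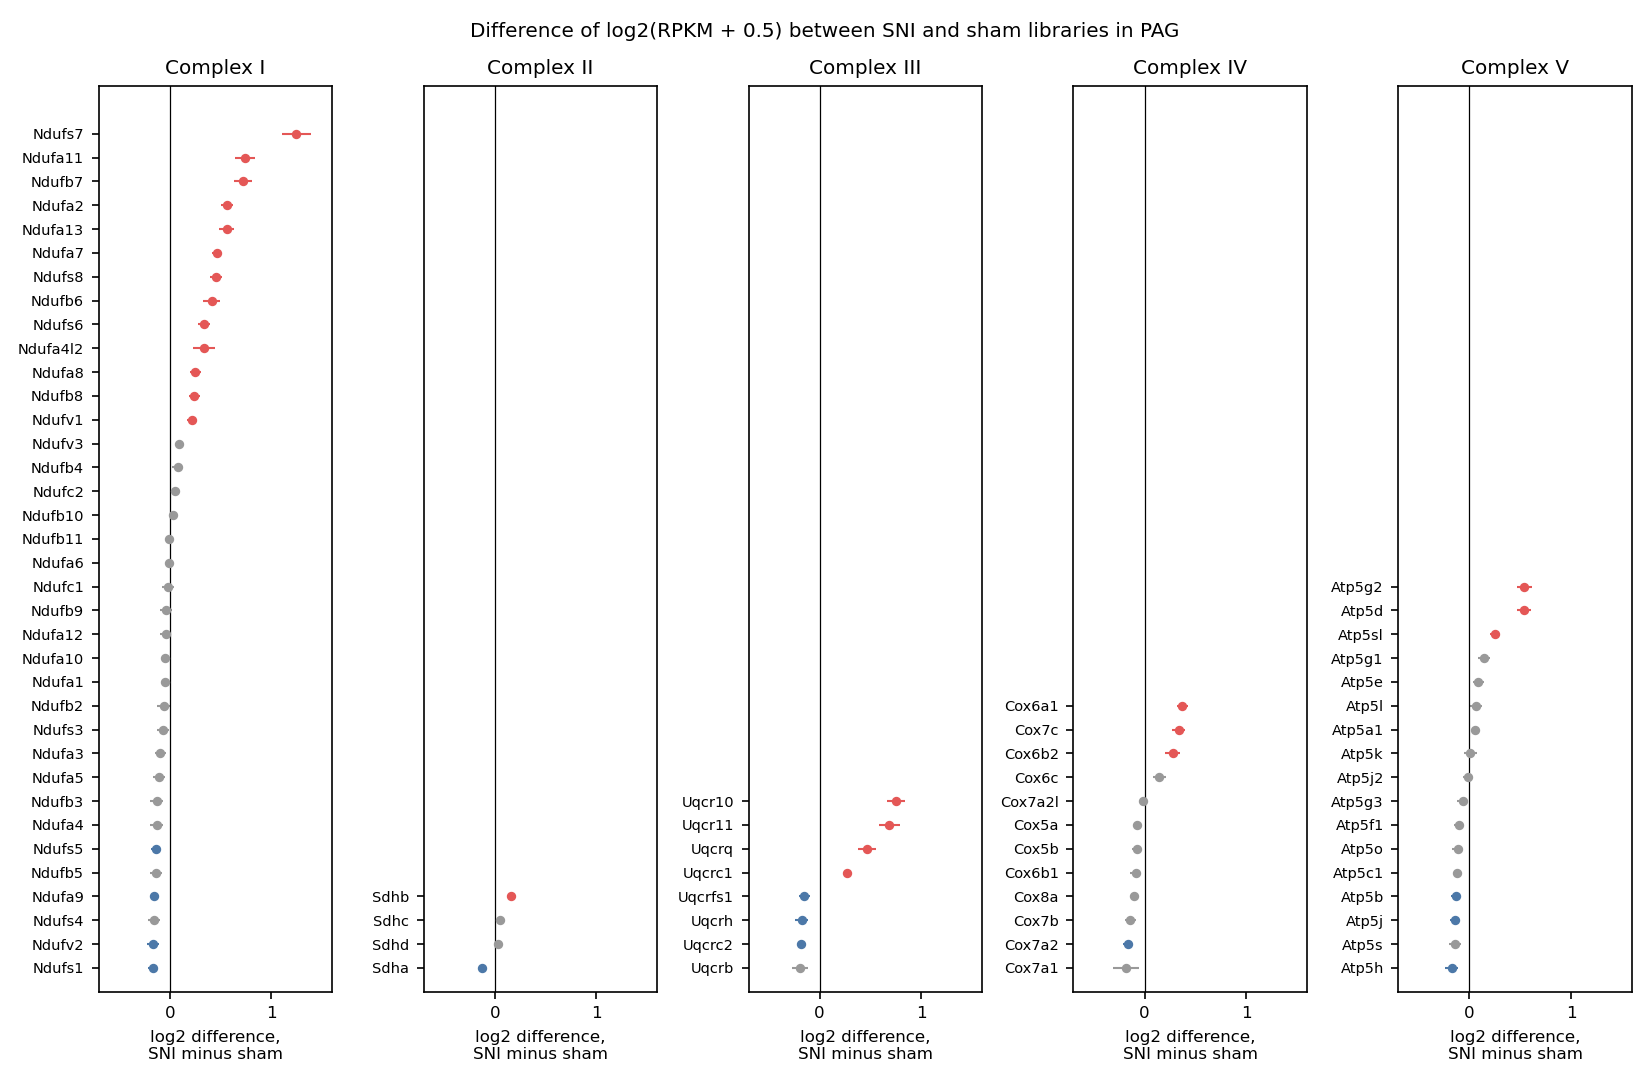
Differences between SNI and sham libraries in PAG for the members tested, by complex, with 1 member that did not pass left out. The x axis is the log2 difference of RPKM + 0.5, SNI minus sham, bars are standard errors, red marks members called higher, blue lower and grey not passed. Rises spread up to 1.25 (Ndufs7), while the falls stay within 0.2 of 0.

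Complex I held the largest rise, followed by that of Uqcr10 in complex III, which is given below. Ndufs7 (ENSMUSG00000020153, chr10:80249121-80256794, plus strand, in mm10), a core subunit that carries the last iron-sulphur cluster before ubiquinone, had sham values of 12, 8.98, 8.33, 5.61, 9.54 and 8.82 RPKM in PAG. The SNI values were 19.9, 19.6, 17.8, 21.8, 21.2 and 28.9 RPKM. Every SNI library was above every sham library, and SNI 36 stood highest. The log2 difference was 1.25 ± 0.14 (SE; limma, adjusted p = 7.32e-05). Ndufb7 (ENSMUSG00000033938, chr8:83566671-83571626, plus strand), an accessory subunit of the membrane arm, was 3.47 to 5.82 RPKM in sham (median 4.61) and 7.42 to 9.01 in SNI libraries (median 7.54), again without overlap, a difference of 0.72 ± 0.09 (adjusted p = 9.69e-05). Ndufa11, a membrane-arm subunit next to the antiporter-like core, was 7.75 to 13.4 RPKM (median 10.1) in sham and 15.6 to 19.6 (median 17) in SNI libraries, a difference of 0.74 ± 0.10 (adjusted p = 0.000121). Its annotated exons overlap those of Vmac on the opposite strand, and since the strand setting of the counting is not given in the sources used here, reads of the 2 genes cannot be told apart. Among the core subunits, Ndufs8, which carries further iron-sulphur clusters, rose by 0.45 ± 0.06 and Ndufv1, which binds NADH, by 0.22 ± 0.04.

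The 4 complex I members that were lower in PAG include its largest core subunit. Ndufs1, in the NADH-oxidising arm, had sham values of 53.4, 54, 53.2, 57.6, 55.7 and 54.9 RPKM and SNI values of 47.9, 47.4, 53.9, 51.5, 48.4 and 43.7 RPKM. All SNI libraries were below the sham median of 54.5, but SNI 33 lay inside the sham range. The difference was -0.17 ± 0.04 (limma, adjusted p = 0.00985). Ndufv2, the partner of Ndufv1 in the NADH-oxidising module, went the other way from it, with -0.17 ± 0.06 (adjusted p = 0.0397). Ndufa9 and Ndufs5, accessory subunits, were lower by -0.15 and -0.14. Among the core subunits, Ndufs7, Ndufs8 and Ndufv1 were therefore higher and Ndufs1 and Ndufv2 lower, while Ndufs3 did not pass, with -0.07. The reads of Ndufs1 may include some of Eef1b2, which overlaps it on the opposite strand.

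Complex II, the only complex of the chain with no mitochondrially encoded subunit, was divided in the same way. Sdhb, its iron-sulphur subunit, was 39.1 to 44 RPKM in sham (median 41.9) and 44.2 to 49.4 in SNI libraries (median 46.4), just clear of each other, with a difference of 0.16 ± 0.04 (limma, adjusted p = 0.00481). Sdha, the flavoprotein that oxidises succinate, was 192 to 200 RPKM (median 196) in sham and 170 to 196 (median 178) in SNI libraries. Its groups overlapped slightly, and the difference was -0.12 ± 0.03 (adjusted p = 0.0132). The membrane anchors Sdhc and Sdhd did not pass, with 0.05 and 0.03.

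In complex III 4 members were higher and 3 lower, with core and small subunits on both sides. Uqcr10 (ENSMUSG00000059534, chr11:4701973-4704342, minus strand), a small subunit near cytochrome c1, had sham values of 48.6, 37, 37.4, 32.3, 44.9 and 43.3 RPKM and SNI values of 67.6, 69.5, 65.1, 70.3, 60.7 and 75.7 RPKM. The groups did not overlap, and the difference was 0.75 ± 0.09 (limma, adjusted p = 6.91e-05). Uqcr11 rose by 0.69 ± 0.11, from a sham median of 19.1 to 30.4 RPKM, and Uqcrq by 0.46 ± 0.09, from 5.31 to 6.94 RPKM. Uqcrc1, the first core protein, also rose, from a median of 109 to 130 RPKM (0.27 ± 0.04, adjusted p = 0.00014). Its partner in the core, Uqcrc2, was lower, with 109 to 121 RPKM in sham and 90.8 to 111 in SNI libraries (-0.18 ± 0.04, adjusted p = 0.0069). The hinge protein Uqcrh and the Rieske iron-sulphur protein Uqcrfs1 were lower by -0.18 and -0.15, near the threshold (adjusted p = 0.0403 and 0.0479). Uqcrb did not pass, with -0.19 ± 0.08.

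Complexes IV and V were mostly below the threshold. Cox6a1, the isoform of subunit VIa outside muscle, was 104 to 123 RPKM (median 105) in sham and 131 to 155 (median 140) in SNI libraries, without overlap, a difference of 0.37 ± 0.05 (limma, adjusted p = 0.000181). Cox7c rose by 0.34 ± 0.06 and Cox6b2, the isoform known from testis, by 0.28 ± 0.07 at a level near 2 RPKM. Cox7a2 was the lower member of complex IV, with -0.16 ± 0.05. In complex V, Atp5d, the delta subunit of the central stalk, rose from a sham median of 22.9 to 32.5 RPKM (0.54 ± 0.07, adjusted p = 0.000107). Atp5g2, 1 of 3 genes for the proton-carrying c ring, rose from 20.6 to 29.1 RPKM (0.54 ± 0.08), while Atp5g1 and Atp5g3, which encode the same mature protein, did not pass, with 0.14 and -0.07. Atp5sl, counted with complex V by its name alone, rose by 0.25 ± 0.04. Atp5b fell by 0.13 on the log2 scale, from a median of 341 to 302 RPKM, and Atp5h and Atp5j of the peripheral stalk by 0.18 and 0.14. Exons of Atp5j overlap those of Gabpa on the opposite strand. All 4 members of the peripheral stalk were below 0, and the others of them did not pass.

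**Figure D2:**
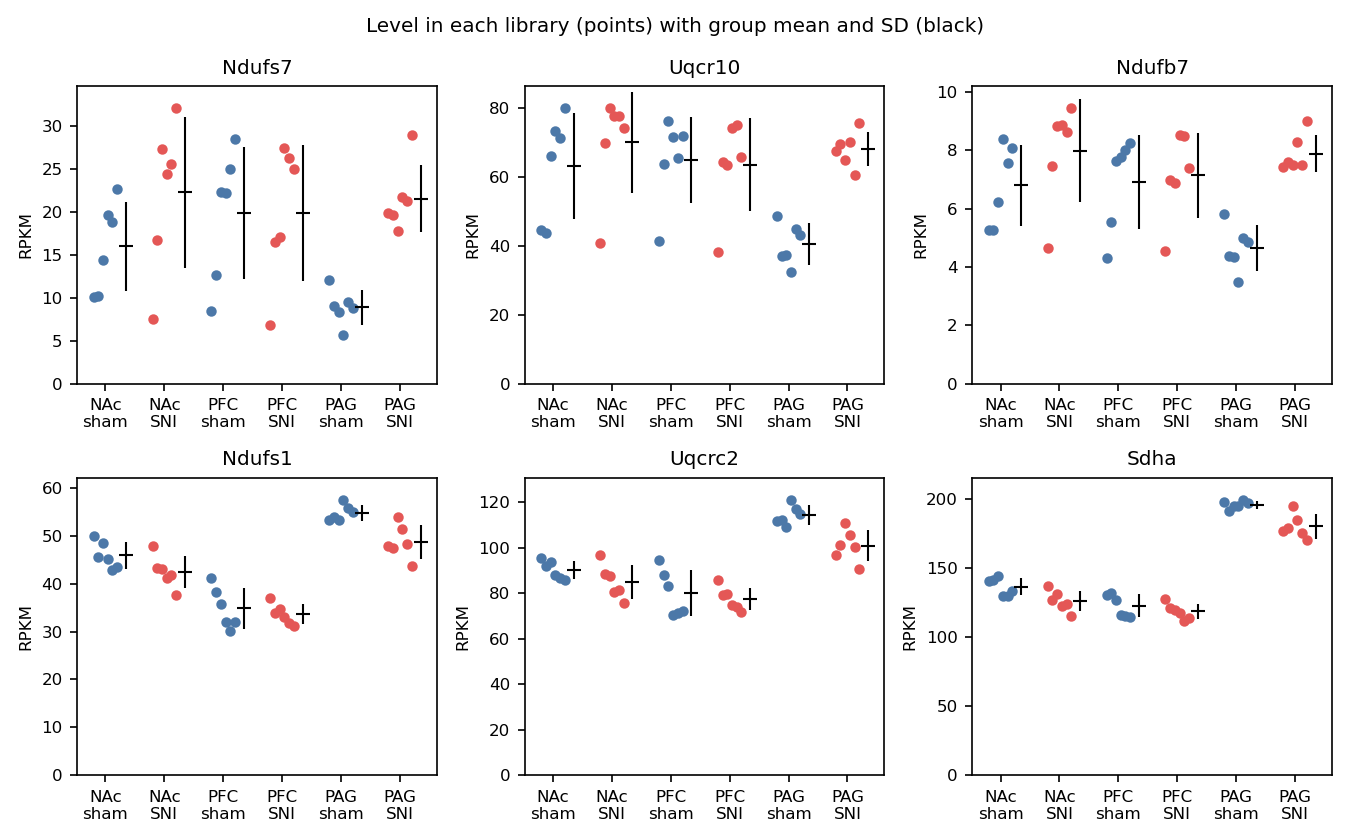
RPKM of 3 members that rose in PAG (top) and 3 that fell (bottom) in each of the 36 libraries, by region and surgery. Points are libraries, and the black mark and bar give the mean and SD of 6. The PAG groups are separate for Ndufs7, Uqcr10 and Ndufb7 and touch or overlap for Ndufs1, Uqcrc2 and Sdha.

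The PAG differences of the members moved with base composition and with the GC slope of the libraries. Members called higher had a median transcript GC content of 54% (n = 24), those called lower 48.2% (n = 12) and those not passed 49.5% (n = 42). With at least 55% GC, 10 of 14 members were higher and 0 lower, which is 71.4% against 67.8% of all genes in that range. From 50% to under 55% GC, 9 of 27 were higher (33.3%, against 21.7% of all genes) and 3 lower (11.1%, against 3.77%). From 45% to under 50% GC, 4 of 23 were higher (17.4%, against 3.88%) and 7 lower (30.4%, against 17.8%). Below 45% GC, 1 of 14 was higher (7.14%, against 0.379% of all genes) and 2 were lower (14.3%, against 31.2%). Across the 78 members, Pearson's r between GC content and the PAG log2 difference was 0.54 and Spearman's rho 0.54, and across 15426 genes r was 0.65. Genes within a library are not independent replicates, and these values are a description. Cox7c, with 38.4% GC, rose against this pattern.

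The same members followed the GC slope in the other regions, where sham and SNI overlapped. Over the NAc and PFC libraries, with the mean of each group removed, all 24 members called higher in PAG had a positive slope of their log2 level on the GC slope, and all 12 called lower had a negative slope. Of the 42 not passed, 10 had a positive slope. The same counts over all genes are not given here, so nothing in them can be called particular to the members. For Ndufs7 the correlation with the GC slope was r = 0.967 and rho = 0.811 in NAc (12 libraries, permutation adjusted p = 4e-05 and 0.00308 over 12 relations), and r = 0.985 and rho = 0.93 in PFC (7.2e-05 and 0.00018). Without the 2 libraries farthest from the median GC slope, r was 0.917 and 0.965. For Ndufs1, r was -0.853 and rho -0.853 in NAc (permutation adjusted p = 0.000192 and 0.00146), and -0.907 and -0.853 in PFC (8e-05 and 0.00149). Without the same kind of outlying libraries r was -0.649 and -0.854. Over 4 further members, r was 0.906 to 0.988 for Uqcr10 and Ndufb7 and -0.811 to -0.91 for Uqcrc2 and Sdha. Without the 2 farthest libraries Uqcr10 fell to r = 0.76 in NAc and 0.62 in PFC. The GC slope was computed over all genes, these members included.

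**Figure D3:**
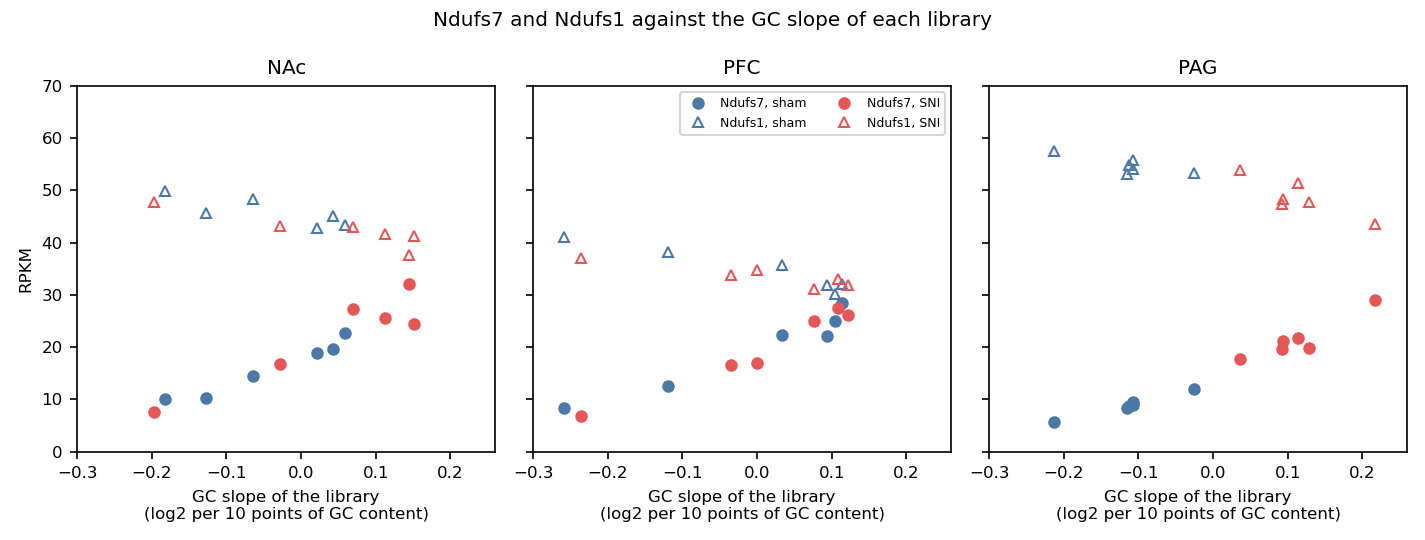
RPKM of Ndufs7 (filled circles) and Ndufs1 (open triangles) against the GC slope of each library, in log2 per 10 points of GC content, by region, with sham in blue and SNI in red. Ndufs7 rises and Ndufs1 falls along the axis in NAc and PFC, where the groups mix, and in PAG the sham libraries lie at negative and the SNI libraries at positive slopes.

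With the GC slope as a covariate, 0 of 78 members and 0 of 15592 genes were called in PAG (limma; 1386 genes at an unadjusted p under 0.05). There the covariate and the surgery were correlated with r = 0.901 over the 12 libraries, and the fit has little left to separate them. When each gene's slope was instead taken from the NAc and PFC libraries and removed from PAG, again 0 members were called, against 12 genes higher and 2 lower, and 16 of the 24 higher and 6 of the 12 lower members kept their sign. The differences were then 0.13 ± 0.05 for Ndufs7 (adjusted p = 0.314), 0.19 ± 0.06 for Uqcr10 (0.187) and 0.17 ± 0.05 for Ndufb7 (0.212). With a smooth curve on GC content removed from each library, 17 members were higher and 3 lower, against 1199 and 816 of 14933 genes. Without PAG sham 28 and PAG SNI 36, the libraries at both ends of the GC slope, 23 were higher and 3 lower, against 2707 and 967 of 15584 genes. Leaving out these 2 libraries was chosen after the data were seen. Surgery and GC slope cannot be told apart in PAG by group.

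Markers of other cell types also moved in PAG. The summed level of 10 microglial markers was 94.2 to 102 RPKM in sham and 106 to 130 in SNI libraries, and that of 10 fibroblast and meningeal markers 132 to 155 and 167 to 248 RPKM, both without overlap (exact permutation p = 0.00216 and adjusted p = 0.0216 for each). The sum of 10 oligodendrocyte markers, 1267 to 1456 and 1351 to 1855 RPKM, overlapped, as did the sum of 10 neuronal markers, 1555 to 1738 and 1555 to 1663 RPKM. Single markers of both types, picked here after their values were seen, did not overlap: the myelin gene Mbp was 204 to 260 RPKM in sham and 300 to 408 in SNI libraries, and the neuronal gene Rbfox3 9.28 to 10.8 and 11.6 to 16.2 RPKM. Rbfox3 does not stand for the neuronal list, whose mean sum was 1619 RPKM in sham and 1607 in SNI libraries. Rbfox3 also differed between the libraries of lowest and highest GC slope in the other regions. It was 21.4 RPKM in NAc SNI 7 (lowest) and 37 in NAc SNI 10 (highest). In PFC it was 22.4 RPKM in sham 13 (lowest) and 37.4 in SNI 23 (highest). The part of these markers in the member differences was not tested.

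Other mitochondrial genes in PAG were mixed as well, and the counts below stand against 21.5% of all genes higher and 13.7% lower. Of 8 tested subunits and carriers left out by the name rule, 0 were higher and 3 lower, with cytochrome c (Cycs) at -0.18 ± 0.06, the ATPase inhibitor Atpif1 at -0.13 ± 0.04 and 2010107E04Rik at -0.22 ± 0.08. Of 40 assembly factors, 7 were higher (17.5%) and 8 lower (20%), near those shares (median -0.05), with Cox14, Cox10 and Uqcc2 among the higher at 0.36, 0.31 and 0.26. Of 19 tricarboxylic acid cycle genes, 3 were higher and 6 lower (median -0.04). Pyruvate carboxylase (Pcx) was the largest rise there, with 0.40 ± 0.06. Of 15 regulators of mitochondrial biogenesis, 4 were higher and 3 lower. Esrra, a nuclear receptor that drives many oxidative genes, rose by 0.94 ± 0.16 (from a mean of 4.39 to 8.84 RPKM), and Polrmt, the mitochondrial RNA polymerase, by 0.73 ± 0.09. For comparison, 33 of 80 cytosolic ribosomal protein genes were higher and 10 lower (median 0.07), and 5 of 35 proteasome genes higher and 13 lower (median -0.09).

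In NAc, 0 of 79 members passed, as did 0 of 15264 genes (0%; limma, and voom in limma on the recovered reads also gave 0). At an unadjusted p under 0.05 stood 5 members and 660 genes (4.32%). The median log2 difference of the members was 0.01, between -0.21 and 0.48. Those 5 were Ndufb3, Sdha and Ndufa9 below 0 and Ndufb11 and Atp5e above it. The member of smallest p in each complex, from I to V, was Ndufb3 with -0.21 ± 0.08, Sdha with -0.12 ± 0.05, Uqcr11 with 0.40 ± 0.21, Cox6a2 with 0.47 ± 0.23 and Atp5e with 0.21 ± 0.09 (limma, adjusted p = 0.78 for each). Ndufs7 was 10.1 to 22.7 RPKM in sham and 7.53 to 32.1 in SNI libraries, so that its difference of 0.40 ± 0.32 was within the spread of either group. Uqcr10 and Ndufb7 gave 0.15 ± 0.19 and 0.21 ± 0.17. The libraries of the 2 groups overlapped in all 79 members (backgrounds of no overlap 0.0131% above and 0.118% below).

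In PFC, 0 of 79 members and 0 of 15192 genes passed (0%; limma, and 0 by voom), and 0 members stood at an unadjusted p under 0.05, against 220 genes (1.45%). The median difference of the members was -0.01, between -0.16 and 0.12. Ndufs7, from 8.42 to 28.5 RPKM in sham and 6.87 to 27.5 in SNI libraries, differed by -0.02 ± 0.35, Uqcr10 by -0.04 ± 0.17 and Ndufb7 by 0.05 ± 0.17. The members of smallest p in complexes I and III were Ndufb3 with -0.16 ± 0.10 and Uqcrb with 0.12 ± 0.09. Here too the groups overlapped in all 79 members (backgrounds 0.0527% above and 0.0329% below).

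The regional difference of the SNI effect was not established by its own test. In 1 model of 36 libraries, 0 members and 0 of 15639 genes (0%) passed for PAG against NAc, PAG against PFC or NAc against PFC (limma). At an unadjusted p under 0.05 stood 12, 23 and 0 members, against 1405, 2779 and 178 genes. The effect on Ndufs7 was larger in PAG than in NAc by 0.84 ± 0.44 (adjusted p = 0.587) and than in PFC by 1.26 ± 0.44 (adjusted p = 0.215). For Uqcr10 these differences were 0.60 ± 0.24 and 0.79 ± 0.24, for Ndufa11 0.65 ± 0.22 and 0.73 ± 0.22, and for Ndufb7 0.51 ± 0.22 and 0.67 ± 0.22. Between NAc and PFC the largest were Cox6a2 with 0.61 ± 0.32 and Ndufb6 with 0.55 ± 0.29. The model takes 1 spread per gene for all regions, so a PAG effect is judged against a spread that includes NAc and PFC. For Ndufs7 the SE of the SNI difference was 0.14 in the PAG fit, against 0.32 in NAc and 0.35 in PFC.

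Sham libraries of the regions differed in many members, though not always by more than after SNI in PAG. The largest difference between NAc and PFC was 0.68 (Ndufa1), against 1.25 for Ndufs7 after SNI in PAG. PAG had the highest levels for most members and PFC the lowest. Against PFC, NAc was higher in 46 of 79 members (background 36.7% of 15639 genes) and lower in 1 (background 22.3%), with a median of 0.21 against 0.07 for all genes. Against PAG, NAc was higher in 13 (background 32.9%) and lower in 40 (background 38.1%), with a median of -0.12 against -0.02. PFC was higher than PAG in 12 (background 31%) and lower in 54 (background 45.1%), with a median of -0.41 against -0.09. Median-of-ratios scaling moved the median of all genes in this last comparison by 0.12, and the members' median relative to it was -0.31 before and -0.29 after. All genes split into 4455 higher and 4291 lower for NAc against PFC under that scaling, against 5742 and 3488, and into 6174 and 5637 for PFC against PAG, against 4845 and 7057. The sham PAG libraries enter both the SNI comparison in PAG and these comparisons, so the results share them. Few members differed by at least 2-fold past the threshold, with 0 for NAc against PFC (background 6.85%), 2 for NAc against PAG (background 13%) and 5 for PFC against PAG (background 15.1%).

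**Figure D4:**
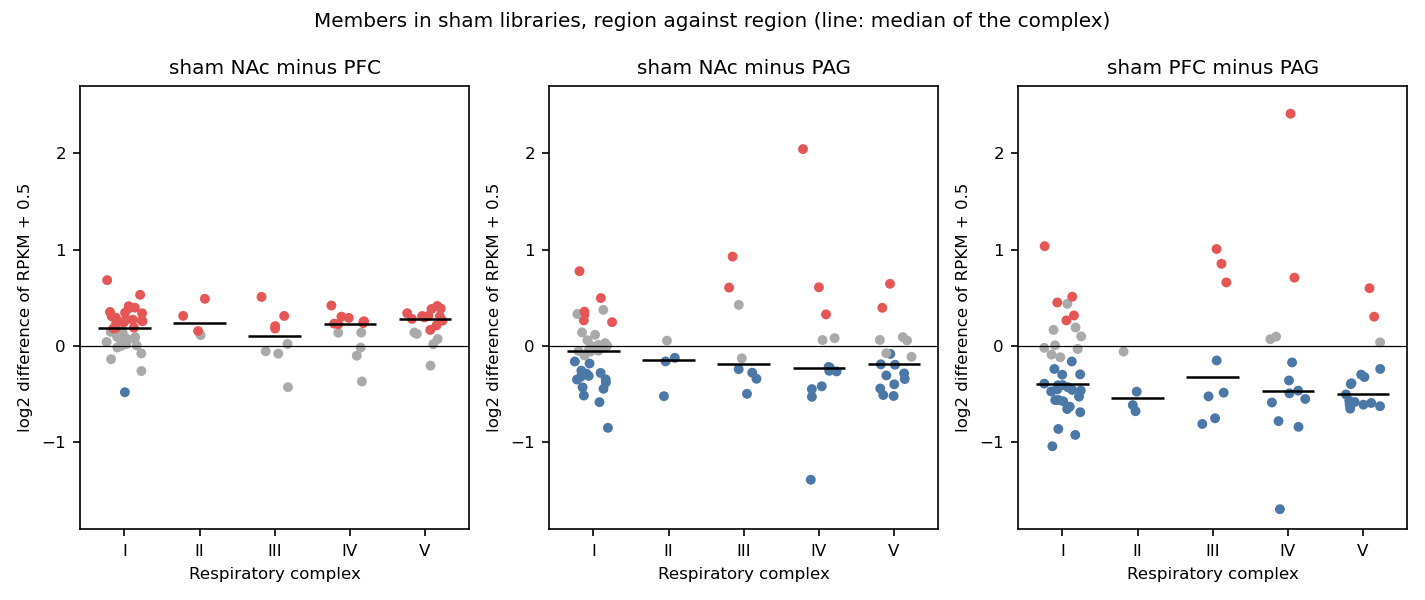
Log2 differences of RPKM + 0.5 between regions in sham libraries for the 79 members, by complex. Red and blue mark members called higher and lower, grey those not passed, and the black line is the median of the complex. Most members of each complex lie below 0 for PFC against PAG (median -0.41), while Cox6a2 stands at 2.41 and Cox7a1 at -1.69.

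The members furthest apart between regions were muscle-type isoforms of complex IV. Cox6a2, the heart and skeletal muscle isoform of subunit VIa, was 1.66 to 3.55 RPKM in NAc (median 2.41), 1.99 to 4.37 in PFC (median 4.01) and 0.113 to 0.345 in PAG (median 0.192). PAG was below all libraries of the other regions, with differences of 2.04 ± 0.22 for NAc (limma, adjusted p = 6.29e-10) and 2.41 ± 0.22 for PFC (adjusted p = 1.14e-11). As few as 3 reads lay behind a value, and Itgad overlaps the gene on the opposite strand. Cox7a1, the muscle isoform of subunit VIIa, went the other way, with 1.54 to 2.36 RPKM in NAc, 0.907 to 2.29 in PFC and 4.81 to 7.84 in PAG (differences -1.39 ± 0.13 and -1.69 ± 0.13). NAc and PFC overlapped for it, and every PAG library was above both. Their widely expressed counterparts were far more abundant: Cox6a1 held 170 ± 32.7 RPKM in the NAc libraries, 182 ± 35.4 in those of PFC and 110 ± 7.95 in those of PAG, and Cox7a2 119 ± 8.37, 109 ± 12 and 139 ± 4.7 (SD, n = 6).

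**Figure D5:**
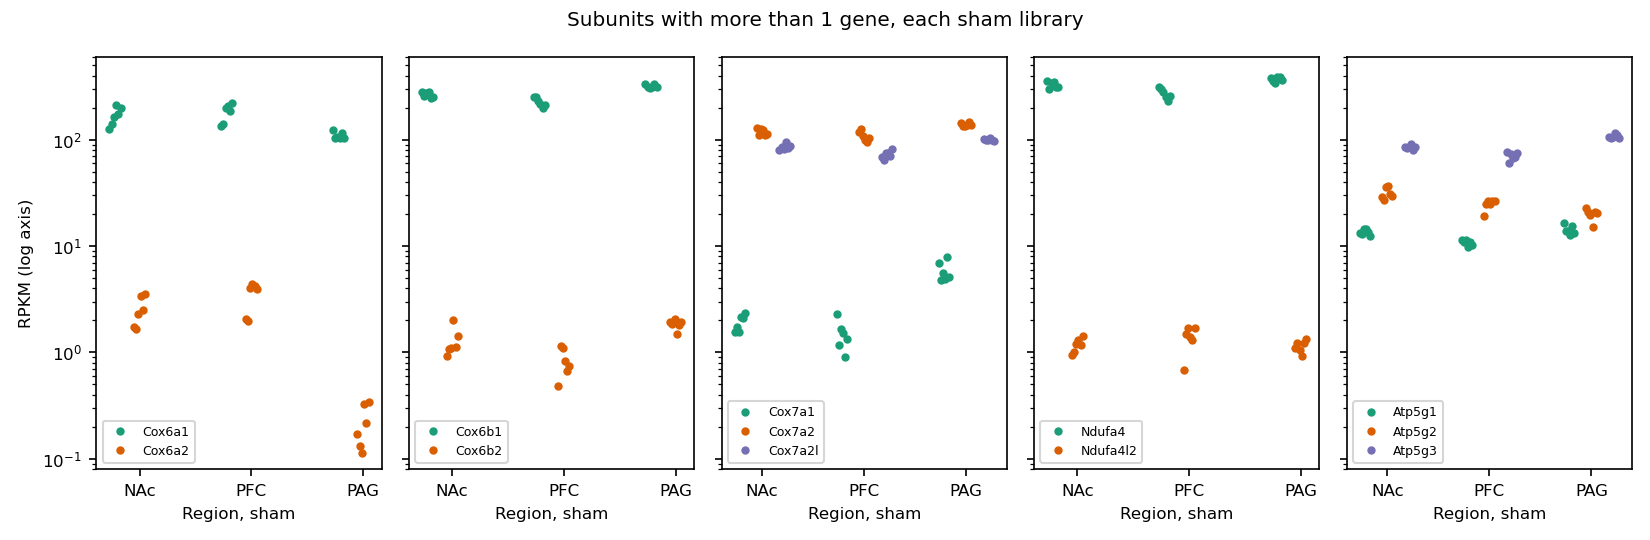
RPKM, on a log axis, of subunits with more than 1 gene in each sham library of NAc, PFC and PAG. Cox6a1 lies at 104 to 223 RPKM in the 3 regions, Cox6a2 drops below 0.4 RPKM in PAG, and Cox7a1 is highest there.

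Other isoform pairs kept their order in every region. Cox6b1 was 247 to 282 RPKM in sham NAc and 303 to 333 in sham PAG, while Cox6b2 stayed at or below 2.04, with 0.484 to 1.15 in PFC, 0.935 to 2.01 in NAc and 1.48 to 2.04 in PAG. Ndufa4 was 229 to 386 RPKM and its relative Ndufa4l2 0.683 to 1.71. Of the c-ring genes, Atp5g3 was highest, at 108 ± 4.4 RPKM in PAG, 85 ± 4 in NAc and 70 ± 5.99 in PFC, whereas the mean of Atp5g2 was lowest in PAG, at 20 ± 2.65 against 31.5 ± 4 and 24.8 ± 2.81, with PAG and PFC libraries overlapping. The deposited length of Atp5g1, 4912 bases, lowers its RPKM beside the others.

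Among single-gene subunits, PAG was highest for members of every complex. Ndufb2 was 5.84 to 7.48 RPKM in PAG, 3.03 to 3.67 in NAc and 2.33 to 3.49 in PFC, Ndufb5 45.4 to 49.8, 28.5 to 32.9 and 22 to 29.3, and Ndufv2 64.7 to 71.6, 44.6 to 49.6 and 32.6 to 42.2. None of these PAG ranges touched those of the other regions. Ndufb2 has the kinase gene Braf as an overlapping neighbour on the opposite strand. Sdha followed, at 192 to 200, 130 to 145 and 114 to 132 RPKM. Ndufa1, an X-linked accessory subunit, was highest in NAc, with 84.4 to 107 RPKM against 53.8 to 68.8 in PFC, a difference of 0.68 ± 0.06 (limma, adjusted p = 1.54e-12). Sdhc, Ndufs4 and Uqcrb also stood out as higher in NAc than in PFC, by 0.49, 0.53 and 0.51. Ndufb6 was the member that was lower in NAc, with -0.48 ± 0.20, and its call was lost without any 1 of 8 of the 12 NAc and PFC sham libraries.

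Some members were lower in sham PAG than in the other regions. Against PAG, PFC and NAc were higher by 1.04 ± 0.31 and 0.78 ± 0.31 for Ndufs7, by 1.01 ± 0.21 and 0.93 ± 0.21 for Uqcr11, by 0.66 ± 0.17 and 0.61 ± 0.17 for Uqcr10, and by 0.71 ± 0.12 and 0.61 ± 0.12 for Cox6a1. Their SNI differences in PAG were 1.25, 0.69, 0.75 and 0.37. Both sets of values use the same sham PAG libraries, so they are not independent. An alternative chosen after the data were seen took the GC slope as a covariate in the model of 36 libraries. Ndufs7 was then higher in PFC and NAc than in PAG by 0.51 ± 0.08 and 0.43 ± 0.07. The GC slope is measured from the mean of each region, so this covariate cannot account for a GC difference between regions. The call of Ndufs7 for NAc against PAG was lost without NAc sham 4, 5 or 6 (adjusted p = 0.0521 to 0.0674).

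Other mitochondrial genes were compared between PFC and PAG as well, where 45.1% of all genes were lower in PFC and 31% higher. PAG was above PFC in 18 of 19 tricarboxylic acid cycle genes (median -0.35, PFC minus PAG) and 25 of 40 assembly factors, with 7 the other way, and in 6 of 8 left-out subunits and carriers. Succinyl-CoA ligase (Suclg1) stood at -0.72 ± 0.04, the assembly factor Uqcc1 at -0.98 ± 0.05 and Cycs at -0.59 ± 0.07. Among the regulators, the estrogen-related receptor genes Esrrb and Esrrg were -1.85 ± 0.08 and -1.78 ± 0.11, and Tfam, which packages and transcribes mitochondrial DNA, -0.69 ± 0.05. Of the proteasome genes, 28 of 35 were lower in PFC than in PAG and 4 higher (median -0.25), and of the ribosomal protein genes 43 of 80 were lower (53.8%) and 11 higher (median -0.20). Oligodendrocyte markers were lower in PFC than in PAG for 10 of 10 (median -1.36) and microglial markers higher for 9 of 10 (median 0.69). The part of cell composition in the regional differences was not tested.

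Promoters of the members were searched for the sites of factors known for nuclear mitochondrial genes. RefSeq (GRCm38.p6) gave the 250 bases before the start for 64 members, with 69 starts. These starts can differ from the gene bounds in GENCODE: the windows of Ndufb7 and Sdha reach into the gene as GENCODE has it, and that of Ndufs7 lies inside it. The NRF1 motif (GCGCA and GCGC with any base between them, on either strand) lay in 20.3% of the member promoters, against 7.41% of the promoters of coding genes over 0.5 RPKM and 3.74% of all promoters. The GABPA motif CCGGAAG lay in 17.4%, against 12% and 6.91%. The YY1 motif AANATGGCG lay in 4.35% (3 of 69), against 1.91% and 1.12%. The ESRRA motif TCAAGGTCA lay in 1.45% (1 of 69), against 0.299% and 0.387%. The SP1 motif GGGCGG lay in 31.9%, below the 56.3% of coding genes. The promoters of Sdha (chr13:74350241-74350490, minus strand), with 3 NRF1 matches, and of Ndufb7 (chr8:83566508-83566757, plus strand), with 1 GABPA match, are shown with the matches in capitals.
Sdha: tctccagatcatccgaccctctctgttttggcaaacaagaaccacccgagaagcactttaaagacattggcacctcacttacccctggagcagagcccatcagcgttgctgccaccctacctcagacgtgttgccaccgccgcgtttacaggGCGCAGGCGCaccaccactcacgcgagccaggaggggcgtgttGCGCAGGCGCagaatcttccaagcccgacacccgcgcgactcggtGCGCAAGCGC
Ndufb7: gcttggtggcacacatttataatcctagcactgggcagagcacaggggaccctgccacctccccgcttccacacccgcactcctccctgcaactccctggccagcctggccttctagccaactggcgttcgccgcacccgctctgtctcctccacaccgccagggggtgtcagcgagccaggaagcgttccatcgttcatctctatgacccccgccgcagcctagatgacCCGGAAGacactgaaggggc
The promoters of Ndufs7 and Uqcr10 held none of the 5 motifs in these windows. A match is a description of letters, and none of these data measure binding.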

How the data were processed

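Expression was measured by RNA sequencing in 36 mouse brain libraries. The authors deposited RPKM values for each gene, with gene lengths; TopHat2 and HTSeq with the mm10 build are named per the submitters' processing notes, without settings or roles. All deposited values gave whole reads (100%, tolerance 0.001), from which depth was recovered. Gene coordinates, overlaps and GC content (longest transcript) came from GENCODE M21, on mm10.

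Tests used log2(RPKM + 0.5) in limma 3.58.1 under R 4.3.3 with a mean-variance trend, two-sided, with Benjamini-Hochberg adjustment over every gene whose mean reached 0.5 RPKM, and a threshold of 0.05. The added 0.5 shrinks differences of weakly expressed genes. SNI comparisons used the 12 libraries of a region; region contrasts and differences of SNI effects used 1 model of 36. Single values per library were compared by exact permutation, and correlations by 100000 permutations (SciPy 1.17.1 in Python 3.11.15). The fit was tested on simulated data. Members and lists were chosen with earlier results of these data known. Members named were the markers Ndufs7, Uqcr10 and Ndufb7, the largest changes per complex and contrast (or the smallest p where none passed), the calls against the majority, the 5 highest and 5 lowest members, and isoform families; Sdhc, Sdhd, Ndufs3, Ndufs8, Ndufv1, Ndufb11, Uqcrc1, Atp5g1 and Atp5g3 were added after their values were seen. Alternatives were other pseudocounts, filters, scalings and models, voom, GC and length corrections and left-out libraries. The values of 1 member are not reported here.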

Additional observations from a re-analysis of the deposited data

Results flagged for a closer look

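Each group of 6 libraries was examined for a library far from the others, in 282 sets of values, and chance marks about 1 in 20 such sets. Most marked values came from libraries at the ends of the GC slope. PAG SNI 36, of highest GC slope in PAG, stood above its group for Ndufs7 with 28.9 RPKM, Ndufb6 with 20.4, Uqcr11 with 39.3, Uqcrq with 10.3 and Cox6a2 with 1.04 RPKM. NAc SNI 7, of lowest slope in NAc, stood below its group for Uqcr10 with 40.8 RPKM, Ndufa11 with 7.97, Atp5g2 with 23.9 and Cox7c with 23.5 RPKM. PFC SNI 19 was lowest for Uqcr10 with 38.1 RPKM and Ndufa11 with 7.19 RPKM. PFC sham 13 was lowest for Uqcr10 with 41.3 RPKM and Atp5g2 with 19.3 RPKM, and highest for Uqcrb with 28.4 RPKM. PAG sham 28, of lowest slope in PAG, was highest for Uqcrb with 39.2 RPKM and Atp5s with 15.1 RPKM. The summed level of complex IV was highest in NAc sham 4, with 1313 RPKM against 1107 to 1180 in the other 5 libraries, and this library also had the highest summed level of fibroblast and meningeal markers, 775 RPKM. The part of either measure in these values was not tested.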

How the results depend on the processing

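No paired analysis was possible because the groups shared no replicate numbers. Other pseudocounts, a filter of 2 RPKM and median-of-ratios scaling left the PAG counts within 1.5 times. The 24 higher and 12 lower members of PAG became 0 and 0 with the GC slope as a covariate (median 0.083) and with slopes taken from the other regions. The lower count became 4 with no filter, 25 with quantile scaling, 5 in 1 model of all libraries, 22 with array weights, 3 with a GC curve removed, 26 with a length curve removed, and 3 without both libraries at the ends of the GC slope. Leaving out 1 library gave 4 to 28. No counts of all genes are given here for no filter, 1 model, array weights, the length curve or single left-out libraries. The member counts under them cannot be set against a background. For sham NAc against PFC the lower count of 1 became 0 with no filter, in the 12 sham libraries alone and without the 6 NAc libraries with over 50 RPKM of Slc17a7 (2 sham NAc libraries left), 3 with the GC slope as a covariate, 4 without the 6 NAc and PFC libraries with a GC slope under -0.1, and 0 to 2 without 1 library. For sham NAc against PAG the higher count of 13 became 8 without the Slc17a7 libraries. Chosen after seeing the data were the fits without the Slc17a7 libraries and without the 6 libraries of low GC slope. So were the GC slope covariate in the region contrasts and the fit without both PAG libraries at the ends of the GC slope. Counts of all genes are not given either for the region contrasts in the settings named for them above. The members' medians became 0.13, -0.059 and -0.27 for NAc against PFC, NAc against PAG and PFC against PAG with median-of-ratios scaling, -0.36 for PFC against PAG with quantile scaling, and 0.13 and -0.29 for NAc against PFC and PFC against PAG with the GC curve removed.

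Of the 24 higher and 12 lower members of PAG, 20 and 4 kept their sign with the covariate, 16 and 6 with slopes from the other regions, and 21 and 12 with the GC curve removed. Among those named by the rule, the ones that turned were as follows. With the covariate, Atp5h became 0.11, Atp5j 0.064, Cox7a2 0.0106, Ndufs1 0.0658, Ndufv2 0.12, Uqcr11 -0.00675, Uqcrc2 0.0611, Uqcrfs1 0.0551 and Uqcrh 0.14. With slopes from the other regions, Atp5b became 0.0078, Cox6a1 -0.038, Cox7a2 0.0049, Ndufa9 0.0025, Ndufs1 0.0138, Sdhb -0.0158, Uqcr11 -0.0833, Uqcrc2 0.0107, Uqcrh 0.0198 and Uqcrq -0.46. With the GC curve removed, Cox6a1 became -0.12. None of these passed the threshold (adjusted p 0.0755 to 0.993), and the cause was not tested. Ndufv1, named outside the rule, became -0.0144 with the GC curve removed. Depth limits mainly Cox6a2, with as few as 3 reads in a library.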
